A study of Mus musculus with 16 samples.

Results

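AY036118, Malat1, Neat1, Meg3 and Kcnq1ot1 are long noncoding RNAs, transcripts that are not translated into protein, and together they made up 5 of the 19373 genes listed for gonadal white adipose tissue (gWAT) of 16 mice. They were chosen by name as abundant long noncoding RNAs with earlier results of these data known, and AY036118 was chosen by its measured level, as the highest entry of the table in most mice. Its abundance is therefore a description and not a finding. The name held for 1 of the 5 at the level seen here: AY036118 was the highest entry, Neat1 and Malat1 had intermediate levels, and Meg3 and Kcnq1ot1 were at or near 0 in most mice. These are levels of the entries under these names, and entries on the strand opposite Malat1 and Meg3 had higher means.

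Malat1 and Neat1 stay in the nucleus, where Malat1 gathers at nuclear speckles, the sites rich in splicing factors, and Neat1 is the RNA scaffold on which paraspeckles are built. Meg3 and Kcnq1ot1 are imprinted, so that a single parental copy is transcribed: Meg3 from the maternal copy of the Dlk1-Dio3 region, and Kcnq1ot1 from the paternal copy of the Kcnq1 region, where it runs antisense to Kcnq1 and silences neighbouring genes. AY036118 is annotated as a long intergenic noncoding RNA that lies within a copy of ribosomal RNA sequence.

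The study asked what loss of Mboat7, which encodes an acyltransferase that places arachidonic acid on lysophosphatidylinositol, does in fat cells. Mboat7 ASKO mice and their Mboat7 flox/flox controls, all male and on the C57Bl6/J background, were given chow (Teklad) or a high-fat diet (HFD, Research Diets D12492) for 20 weeks, with 4 mice in each of the 4 groups. After a fast of 4 h and perfusion with saline, gWAT RNA was made into a single library per mouse with a directional mRNA kit, which records the strand of each transcript. Whether the strand was used when reads were assigned to genes was not given in the sources used here, and neither was the age of the mice beyond their being age-matched. Where 2 listed transcripts share base pairs on opposite strands, which of them the fragments came from was therefore not settled here. This holds for AY036118, Malat1, Meg3 and Kcnq1ot1. What the setting does to the levels of other genes, Mboat7, Neat1 and the cell type markers among them, was not tested.

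All 4 groups carried the floxed Mboat7 allele that remains after FLP recombination. Mboat7 ASKO mice also carried Cre recombinase under the adiponectin promoter/enhancer, which is active in adipocytes, so the other cells of the tissue kept Mboat7. Levels are FPKM, fragment numbers scaled to transcript length and to the fragments mapped, and the share of a gene is its percentage of the FPKM sum of a mouse. The number of reads behind each value is not in the deposited table. The spacing of low values gave a rough estimate of 232000 to 404000 fragments per mouse. It was chosen as the depth that best turned low values into whole numbers. At that depth 49.0% to 80.5% of them lay within 0.2 of a whole number, where an even spread gives 40%. The depth was chosen by these same values, so the excess over 40% is no check of it. FPKM sums ran from 606407 to 982016 with a median of 682086.

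Mboat7 itself was listed at low values, resting on 0 to 14.8 fragments per mouse by the rough estimate of depth. In chow-fed control mice it was at 2.42, 4.33, 0.902 and 4.99 FPKM, and in chow-fed Mboat7 ASKO mice at 0, 1.39, 0 and 2.89 FPKM. On HFD the control mice had 0, 0, 2.15 and 1.61 FPKM and the Mboat7 ASKO mice 1.14, 0, 2.60 and 0 FPKM. The genotypes overlapped on both diets, and on HFD the values did not separate them at all, so the group names used here follow the labels. The log2 difference between genotypes, on the scale of log2(FPKM + 1) used for every difference below, was -1.12 ± 0.62 (SE) on chow (limma, Benjamini-Hochberg adjusted p = 0.983) and -0.02 ± 0.62 on HFD (adjusted p = 1.0).

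AY036118 (ENSMUSG00000105361.1) is a single exon of 923 bases on the minus strand at chr17:39847113-39848035 (mm10). Its whole sequence lies within Rn18s-rs5, annotated as ribosomal RNA on the same strand, at bases 167 to 1089 of that transcript. The strand follows the annotation, and which strand at this locus reads as ribosomal RNA was not tested. The reverse complement of the whole sequence lies within Gm42418, a long intergenic noncoding RNA on the plus strand, at bases 156 to 1078. The start of AY036118 and the matching stretch of Gm42418 are shown, 5′ to 3′ from the GENCODE M21 transcripts, because they are the same base pairs read on opposite strands. Both are 60 exonic bases at chr17:39847976-39848035, and the 15 capitals mark the same base pairs in each.
AY036118: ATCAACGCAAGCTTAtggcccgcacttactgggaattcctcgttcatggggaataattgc
Gm42418: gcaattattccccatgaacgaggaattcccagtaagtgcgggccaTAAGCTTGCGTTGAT

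In chow-fed control mice AY036118 was at 96479.5, 159585, 59615 and 88645 FPKM. In chow-fed Mboat7 ASKO mice it was at 91039.5, 77029, 117031 and 164726 FPKM. These 2 groups overlapped over nearly their whole range, with a single mouse well above the rest in each. On HFD the control mice had 120456, 319925, 83812 and 120810.0 FPKM. The Mboat7 ASKO mice on HFD had 106821, 72465, 114813 and 268604 FPKM. A single mouse in each HFD group stood far above its group, and without those mice the HFD values lay within the range of the chow-fed mice.

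As a share of the FPKM sum, AY036118 made up 15.2%, 20.7%, 9.61% and 14.5% in chow-fed control mice and 13.0%, 11.6%, 14.0% and 22.3% in chow-fed Mboat7 ASKO mice. On HFD its share was 16.6%, 32.6%, 12.6% and 15.3% in control mice and 17.6%, 11.1%, 17.9% and 31.4% in Mboat7 ASKO mice. The same mice were high on both scales, and all 4 groups overlapped. The mean share was 14.98% ± 4.52 (SD, n = 4) and 15.2% ± 4.81 in control and Mboat7 ASKO mice on chow, and 19.3% ± 9.03 and 19.5% ± 8.54 on HFD. FPKM divides by transcript length, which raises the share of a short transcript. When each level was weighted by length again, the share of AY036118 ran from 4.23% to 16.9% with a median of 6.82%. By the rough estimate of depth, AY036118 rested on 87406 of 296000 fragments in replicate 1 of the HFD-fed control mice. That is a larger share than length weighting gave in any mouse. Both shares rest on the same FPKM and length and differ only in the divisor, the estimated depth or the length-weighted sum of all entries. Why these divisors differ was not tested.

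**Figure D1:**
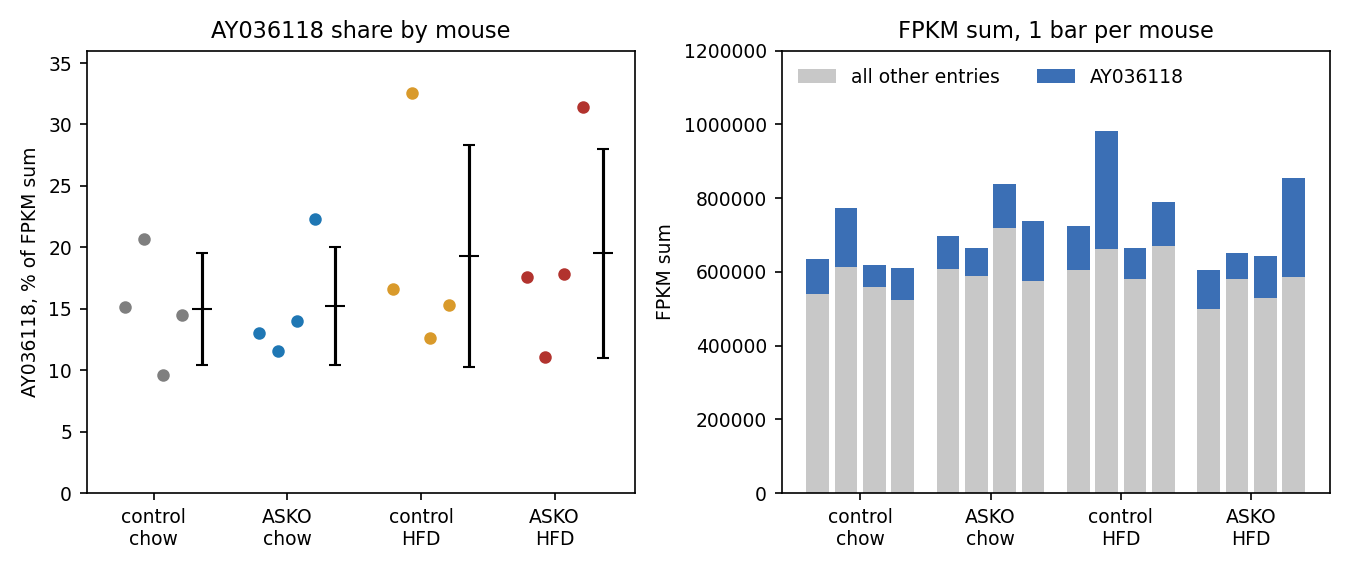
Left, the share of AY036118 in the FPKM sum (percent) in each mouse of the 4 groups, with the group mean and SD; right, the FPKM sum of each mouse, with 1 bar per mouse divided into AY036118 and all other entries. A single mouse in each HFD group was above 31%, at 32.6% and 31.4%, and the highest chow-fed mouse was at 22.3%.

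AY036118 was the highest entry in 14 of 16 mice and the second in the other 2, a control mouse and a Mboat7 ASKO mouse on HFD. In both of these mice RP23-218K15.7 (Gm10252 in GENCODE M21), which overlaps the ferritin light chain gene Ftl1 on the opposite strand, was higher, at 130881 and 108543 FPKM. The narrowest lead among the 14 was 1.04 times, in an HFD-fed control mouse, and the ratio by which AY036118 was exceeded was 1.08 and 1.498. AY036118 alone held 62.6% to 88.3% of the FPKM of all long intergenic noncoding RNAs.

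The within-group SD of AY036118 was 0.69 on the log2 scale. The median over the 13148 genes tested was 0.81, and 35.7% of these genes had a lower SD. The 1173 tested genes with a mean of at least 50 FPKM varied less on this scale. Their median SD was 0.50, and 70.5% of them had a lower SD than AY036118. The coefficient of variation of the FPKM sum over the 16 mice was 14.7%, and without AY036118 it was 9.78%. Within control and Mboat7 ASKO mice it was 11.4% and 10.1% on chow and 17.4% and 16.3% on HFD. Without AY036118 these values were 6.96% and 10.7% on chow and 6.91% and 7.59% on HFD.

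HFD-fed mice had a mean AY036118 share of 19.4% ± 8.14 (SD, n = 8) and chow-fed mice 15.1% ± 4.33 (n = 8), a difference of 4.29 percentage points that was within the spread between mice (two-sided exact permutation test within genotype, 4900 arrangements, p = 0.244). Mboat7 ASKO mice had 17.4% ± 6.81 and control mice 17.1% ± 6.997, a difference of 0.234 percentage points (exact permutation test within diet, p = 0.938). Both differences leaned on single mice: on leaving out each mouse in turn they ran from 2.07 to 5.69 and from -1.75 to 2.45 percentage points, with the lowest diet difference without replicate 1 of the HFD-fed control mice, the mouse at 32.6%. The log2 difference with HFD was 0.39 ± 0.31 over both genotypes (limma, adjusted p = 0.567), with a 95% interval from -0.27 to 1.04. Between genotypes it was 0.00 ± 0.31 (adjusted p = 1.0), with an interval from -0.65 to 0.65. These intervals do not exclude a difference of up to 1.04 with HFD.

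Rn18s-rs5 (chr17:39846353-39848827, minus strand), which contains AY036118 on the same strand, was far below it. How fragments from the shared base pairs were divided between these entries was not tested, so neither level stands apart from the other. In chow-fed mice Rn18s-rs5 was at 3927, 7153, 4018 and 3349 FPKM in controls and at 4286, 7123, 10239 and 3995 FPKM in Mboat7 ASKO mice. With HFD it was at 3428, 5028, 1715 and 4490.1 FPKM in controls and at 1467, 2325, 2832 and 2149.9 FPKM in Mboat7 ASKO mice. The 4 Mboat7 ASKO mice on HFD were all below the 8 chow-fed mice, while the HFD-fed control mice overlapped the chow-fed mice. Rn18s-rs5 fell with HFD by 0.93 ± 0.26 over both genotypes (limma, adjusted p = 0.0369) and by 1.48 ± 0.37 in Mboat7 ASKO mice (adjusted p = 0.0343). In control mice the difference was -0.38 ± 0.37 (adjusted p = 0.743), and the test of the difference between genotypes gave -1.10 ± 0.52 (adjusted p = 0.791).

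Both calls of Rn18s-rs5 sat close to the limit. The call over both genotypes was lost in 3 of 9 other settings and on leaving out 10 of the 16 mice in turn, and the call in Mboat7 ASKO mice in 5 of 10 settings and on leaving out 5 of 16 mice. On leaving out each mouse the differences ran from -1.02 to -0.76 and from -1.67 to -1.22. Gm42418, on the opposite strand, ran from 24.4 to 176 FPKM, far below AY036118 in all 16 mice, and was not called in any of the 7 comparisons. Across the 16 mice, with group means subtracted, AY036118 and Gm42418 had a Pearson r of 0.76 and a Spearman rho of 0.58, and r was 0.60 without the 2 mice farthest from the median. For AY036118 and Rn18s-rs5 r was 0.36 and rho 0.34. These values come from the same libraries and from the same base pairs, and are given as a description.

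**Figure D2:**
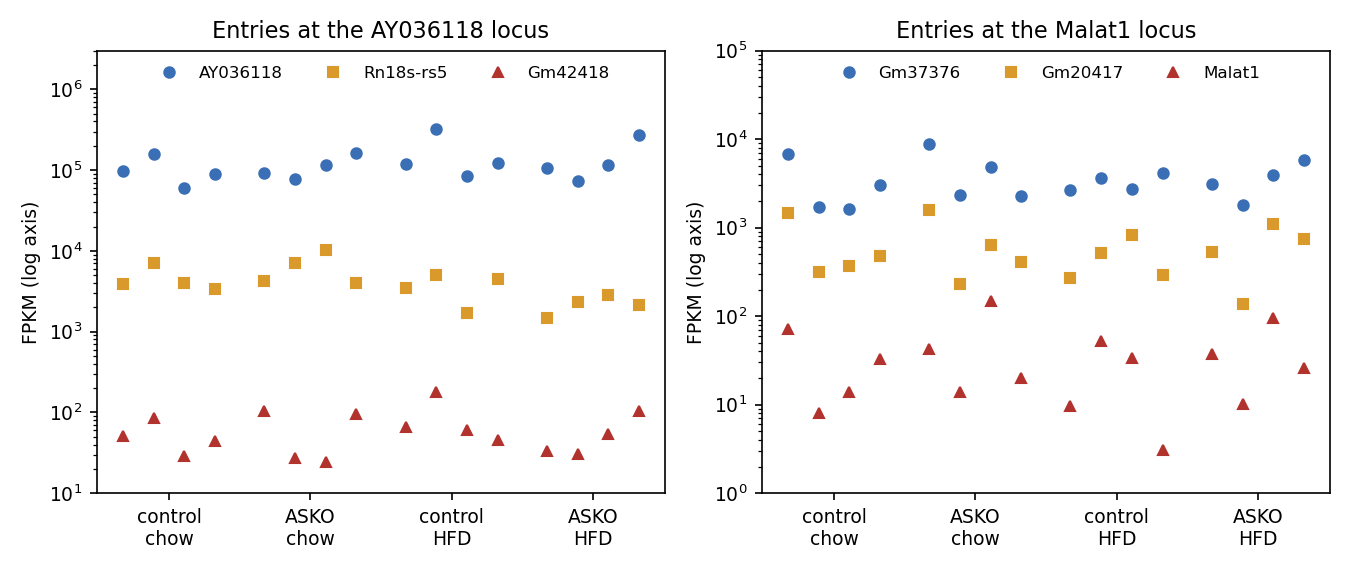
FPKM (log axis) of the entries that share a locus, with 1 mark per mouse in the 4 groups: AY036118, Rn18s-rs5 and Gm42418 on the left, and Gm37376, Gm20417 and Malat1 on the right. AY036118 was above Rn18s-rs5 and Gm42418 in all 16 mice, and Malat1 was below Gm37376 and Gm20417 in all 16 mice.

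Malat1 (ENSMUSG00000092341.2) covers 6983 exonic bases on the minus strand at chr19:5795690-5802672. In chow-fed control mice Malat1 was at 71.7, 8.04, 14.0 and 33.0 FPKM, and in chow-fed Mboat7 ASKO mice at 42.7, 13.8, 149 and 20.2 FPKM. With HFD Malat1 was at 9.57, 52.6, 33.3 and 3.10 FPKM in control mice and at 37.1, 10.2, 94.4 and 25.8 FPKM in Mboat7 ASKO mice. Malat1 thus differed many-fold between mice of the same group, and all 4 groups overlapped. Its rank among the listed genes ran from 542 to 7407, its share of the FPKM sum from 0.000391% to 0.0178%, and its coefficient of variation within groups from 87.7% to 112%. By the rough estimate of depth its values rested on 6.59 to 326 fragments, and those of Neat1 on 401 to 1143. The within-group SD of Malat1 on the log2 scale was 1.45, and 89.1% of tested genes had a lower one.

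The low level of Malat1 stood beside a high level on the opposite strand. Gm37376, a predicted transcript of 453 bases that awaits experimental support, lies on the plus strand at chr19:5801941-5802393, wholly inside the Malat1 exon. The first 60 bases of Gm37376 and the matching stretch of Malat1, both exonic at chr19:5801941-5802000, are shown 5′ to 3′ because these base pairs belong to the low and the high entry alike. The 15 capitals again mark the same base pairs on the 2 strands.
Gm37376: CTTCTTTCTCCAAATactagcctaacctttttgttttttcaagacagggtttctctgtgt
Malat1: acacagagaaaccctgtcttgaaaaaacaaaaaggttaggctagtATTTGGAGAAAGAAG

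In chow-fed mice Gm37376 was at 6726, 1733, 1615 and 3047 FPKM in controls and at 8869, 2341, 4828 and 2307 FPKM in Mboat7 ASKO mice. With HFD Gm37376 was at 2662, 3693, 2746 and 4189 FPKM in controls and at 3103, 1794, 3916 and 5815 FPKM in Mboat7 ASKO mice. Gm37376 was thus above Malat1 in all 16 mice, by 32.3 to 1353 times with a median of 115, on levels that are already per length. Gm20417, an entry that the table places at the same locus and that GENCODE M21 does not hold, so that its strand is not known here, ran from 138 to 1605 FPKM and was also above Malat1 in all 16 mice. The ratio of Gm20417 to Malat1 ran from 4.23 to 94.7.

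Malat1 and Gm20417 had an r of 0.74 and a rho of 0.76 across the 16 mice, and Malat1 and Gm37376 an r of 0.53 and a rho of 0.52, as a description of entries that share libraries and position. Whether the fragments counted here came from Malat1 or from a transcript of the other strand was not tested. The strand setting was not given in the sources used here, and the reads were not used.

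The Malat1 share was 0.00468% ± 0.00455 (SD, n = 8) in HFD-fed and 0.00609% ± 0.00577 (n = 8) in chow-fed mice (exact permutation test, p = 0.587). By genotype it was 0.00677% ± 0.00616 with Mboat7 ASKO and 0.00400% ± 0.00358 in control mice (exact permutation test, p = 0.310). Neither difference exceeded the spread between mice. On the log2 scale the difference was -0.37 ± 0.63 with HFD (limma, adjusted p = 0.834) and 0.80 ± 0.63 in Mboat7 ASKO mice (adjusted p = 1.0), with wide 95% intervals of -1.71 to 0.97 and -0.54 to 2.14. Gm37376 and Gm20417 were not called in any of the 7 comparisons.

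Neat1 (ENSMUSG00000092274.2) covers 20771 exonic bases on the minus strand at chr19:5824708-5845478, and it was the steadiest of the 3 members that could be tested. In chow-fed control mice Neat1 was at 147, 74.1, 106 and 105 FPKM, and in chow-fed Mboat7 ASKO mice at 138, 169, 158 and 93.9 FPKM. On HFD it was at 136, 116, 67.4 and 63.3 FPKM in control mice and at 63.2, 76.4, 105 and 95.8 FPKM in Mboat7 ASKO mice. The chow-fed Mboat7 ASKO mice held the 2 highest values and the HFD groups the 3 lowest, but all 4 groups overlapped. Group means were 108 ± 29.8 (SD, n = 4) and 139.8 ± 33.3 FPKM in control and Mboat7 ASKO mice on chow, and 95.7 ± 36.03 and 85.0 ± 18.8 FPKM on HFD. Neat1 ranked between 424 and 990 in every mouse. Its within-group SD was 0.42 on the log2 scale, and 7.61% of tested genes had a lower one, or 37.4% of those with a mean of at least 50 FPKM.

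**Figure D3:**
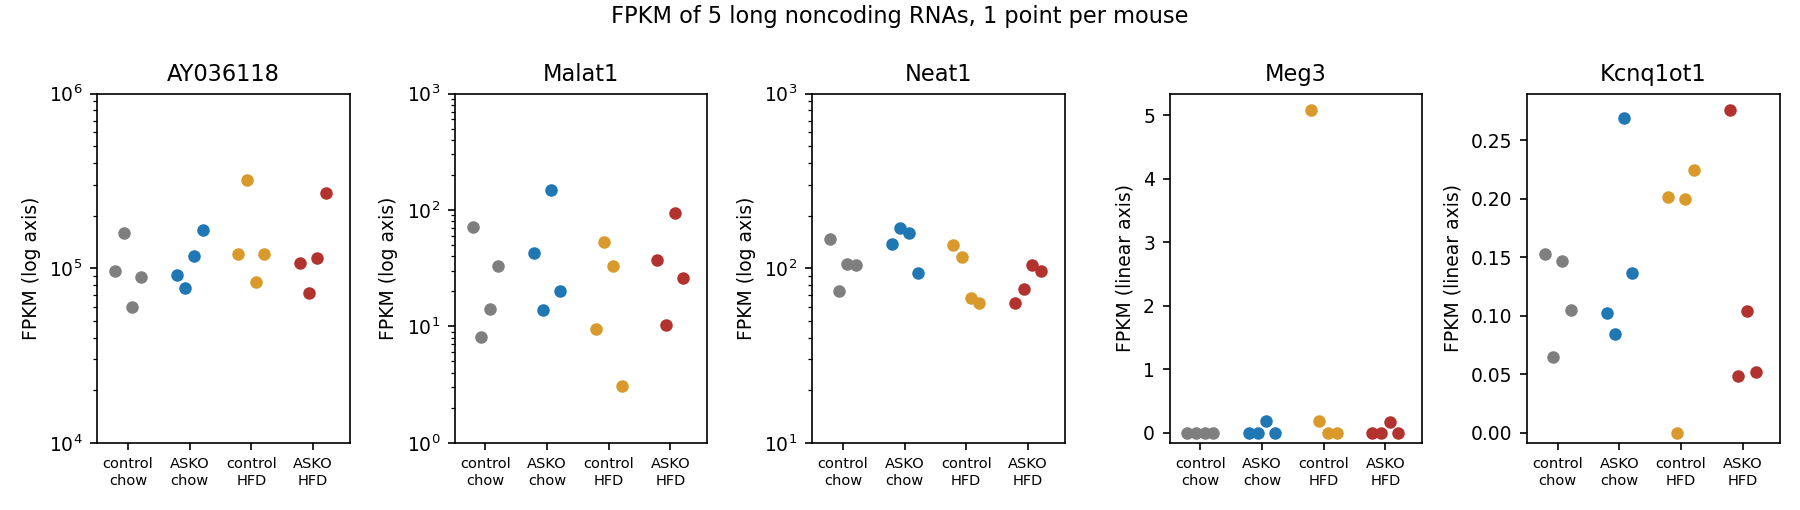
FPKM of the 5 RNAs in each mouse of the 4 groups, with 1 mark per mouse; the axis is logarithmic for AY036118, Malat1 and Neat1 and linear for Meg3 and Kcnq1ot1. Neat1 stayed between 63.2 and 169 FPKM, Malat1 ran from 3.10 to 149 FPKM, and Meg3 was at 0 in 12 of 16 mice.

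The share of Neat1 was 0.0231%, 0.00959%, 0.0171% and 0.0171% in chow-fed control mice and 0.0197%, 0.0254%, 0.0189% and 0.0127% in chow-fed Mboat7 ASKO mice. With HFD the share was 0.0188%, 0.0118%, 0.0101% and 0.00801% in control mice and 0.0104%, 0.0117%, 0.0163% and 0.0112% in Mboat7 ASKO mice. The diets overlapped, with 7 of 8 HFD-fed mice below the chow median and 7 of 8 chow-fed mice above the HFD median. The mean share was 0.0123% ± 0.00352 (SD, n = 8) on HFD and 0.0180% ± 0.00514 (n = 8) on chow, a difference of -0.00566 percentage points (two-sided exact permutation test, p = 0.0273). This p is unadjusted and was the lowest of 10 share tests, and the share also depends on the sum that divides it.

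On FPKM itself Neat1 did not pass: the log2 difference with HFD was -0.46 ± 0.22 over both genotypes (limma, adjusted p = 0.272), with a 95% interval from -0.92 to 0.01. For Mboat7 ASKO mice alone it was -0.70 ± 0.31 (unadjusted p = 0.0380, adjusted p = 0.292, limma), and for control mice alone -0.21 ± 0.31 (adjusted p = 0.839). The test of the difference between the genotypes gave -0.49 ± 0.44 (adjusted p = 0.888). Scaled to the same FPKM sum, the difference in control mice was -0.46 and that between the genotypes -0.15, neither of them called. Against a sum without the 10 highest entries, the share test gave p = 0.0710 (exact permutation). Leaving out each mouse in turn gave p from 0.00857 to 0.0620, with p above 0.05 in 4 cases: 0.0620 and 0.0506 without a chow-fed control mouse (replicate 0) and a chow-fed Mboat7 ASKO mouse (replicate 1), and 0.0527 and 0.0600 without HFD-fed control mice (replicates 2 and 3). The Neat1 share of Mboat7 ASKO mice was 0.0158% ± 0.00526 and that of control mice 0.0145% ± 0.00532 (exact permutation test, p = 0.563).

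**Figure D4:**
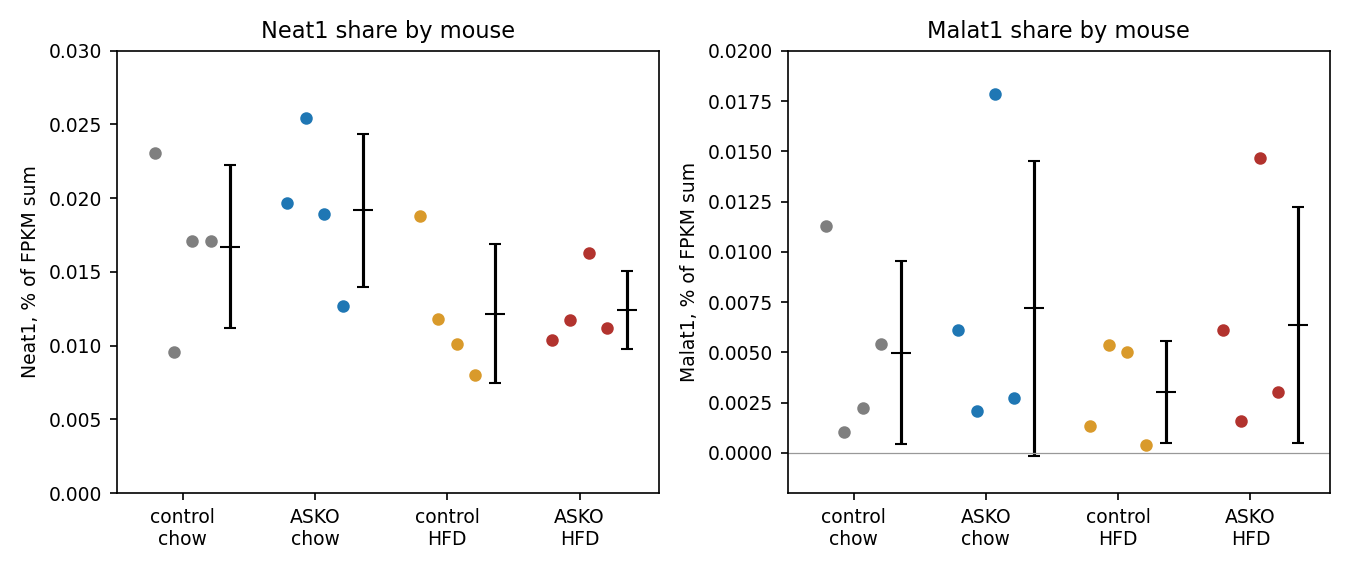
Share of Neat1 and of Malat1 in the FPKM sum (percent) in each mouse of the 4 groups, with the group mean and SD. The Neat1 share had a mean of 0.0180% in chow-fed and 0.0123% in HFD-fed mice with overlapping values, and the Malat1 share was spread widely in every group.

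Markers of adipocytes and macrophages differed with diet in the same mice. The summed level of 12 adipocyte markers was 10335, 18025, 14100.0 and 11523 FPKM in chow-fed control mice and 9149.6, 13463, 25974 and 12663 FPKM in chow-fed Mboat7 ASKO mice. On HFD it was 10748, 6451, 8553 and 4688 FPKM in control mice and 7269.9, 7116, 6549 and 6434 FPKM in Mboat7 ASKO mice. Of these 12 genes 8 were called lower with HFD by limma over both genotypes and 1, the hormone gene Lep, higher, beside 7.53% of all genes called, and Fabp4, a fatty acid carrier, was the most abundant at a mean of 8054 FPKM.

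The summed level of 10 macrophage markers was 269.9, 304, 255 and 301 FPKM in chow-fed control mice and 221, 249.7, 294 and 276 FPKM in chow-fed Mboat7 ASKO mice. With HFD the sum was 799.6, 1054, 649 and 973 FPKM in control mice and 1221, 1320.4, 837 and 1231 FPKM in Mboat7 ASKO mice. All 8 HFD-fed mice were above all 8 chow-fed mice. Of the 10 genes 8 were called higher with HFD by limma over both genotypes and 0 lower, beside 7.53% of all genes called, and the most abundant was Lyz2, a lysozyme, at a mean of 258 FPKM. No marker of either list was at 0 in all mice. The part of these changes in the Neat1 share was not tested, and in bulk tissue fewer cells of a type and less RNA per cell cannot be told apart.

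Meg3 (ENSMUSG00000021268.17, plus strand, chr12:109541001-109571726) was at 0 in 12 of 16 mice and reached 1 FPKM in a single mouse. Chow-fed control mice were all at 0. A chow-fed Mboat7 ASKO mouse was at 0.187 FPKM and a Mboat7 ASKO mouse on HFD at 0.165 FPKM, and the HFD-fed control mice were at 5.09, 0.186, 0 and 0 FPKM. The mouse at 5.09 carried nearly all of the signal, so the mean share, 9.34e-05% on HFD and 2.79e-06% on chow, rested on it (exact permutation test, p = 0.337). The comparison of genotypes gave p = 0.857 (exact permutation test). Gm26906, on the opposite strand and sharing 1228 exonic bases with Meg3, had a mean of 18.6 FPKM and was above Meg3 in 14 mice. Gm26906 was not called in any of the 7 comparisons.

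Kcnq1ot1 (ENSMUSG00000101609.1) is a single exon of 93092 bases on the minus strand at chr7:143203458-143296549. In chow-fed mice it was at 0.153, 0.0650, 0.147 and 0.105 FPKM in controls and at 0.102, 0.0841, 0.269 and 0.136 FPKM in Mboat7 ASKO mice. On HFD it was at 0.202, 0, 0.2001 and 0.224 FPKM in controls and at 0.276, 0.0484, 0.104 and 0.0516 FPKM in Mboat7 ASKO mice. All values were low, resting on 0 to 8.97 fragments by the rough estimate of depth, and all groups overlapped. The mean share was 2.02e-05% on HFD and 1.89e-05% on chow (exact permutation test, p = 0.842), and the comparison of genotypes gave p = 0.901 (exact permutation test). Kcnq1, a potassium channel gene that runs on the opposite strand, was at 0 in 12 mice.

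Neither Meg3 nor Kcnq1ot1 reached 1 FPKM in 4 mice, so 3 of the 5 RNAs passed the filter on low values and were tested on the log2 scale. A gene was called at an adjusted p under 0.05 and an absolute log2 difference above 0.5. With HFD over both genotypes, 0 of the 3 were called by limma and 0 had an unadjusted p under 0.05, beside 7.53% of all genes tested that were called (990, with 590 higher and 400 lower) and 19.4% (2549) at an unadjusted p under 0.05. Between genotypes over both diets 0 of the 3 were called and 0 had an unadjusted p under 0.05, beside 0% of all genes called by limma and 495 genes at an unadjusted p under 0.05.

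Within control mice 0 of the 3 were called with HFD and 0 had an unadjusted p under 0.05, beside 2.91% of all genes called and 14.2% (1870 genes) at an unadjusted p under 0.05. Within Mboat7 ASKO mice 0 of the 3 were called with HFD by limma and 1, Neat1, had an unadjusted p under 0.05, beside 3.43% of all genes called and 15.01% (1974 genes) at an unadjusted p under 0.05. For genotype on chow 0 of the 3 were called and 0 had an unadjusted p under 0.05, beside 0.00761% of all genes called and 631 genes at an unadjusted p under 0.05. No gene was called in this comparison with the replicate block, a filter of 5 FPKM or upper-quartile scaling. For genotype on HFD 0 of the 3 were called and 0 had an unadjusted p under 0.05, beside 0.00761% of all genes called, a single gene, Cdk20, and 677 genes at an unadjusted p under 0.05. Cdk20 (-2.04 ± 0.29, limma, adjusted p = 0.0271, 0 to 4.93 FPKM) was named after its values were seen. It was at 0 in every mouse outside the HFD-fed control group, through which alone it passed the filter, and 0 genes were called in this comparison in 6 of 10 other settings, the replicate block among them. For the test of whether diet acted differently in the genotypes, 0 of the 3 were called by limma and 0 had an unadjusted p under 0.05, beside 0% of all genes called and 828 genes at an unadjusted p under 0.05.

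**Figure D5:**
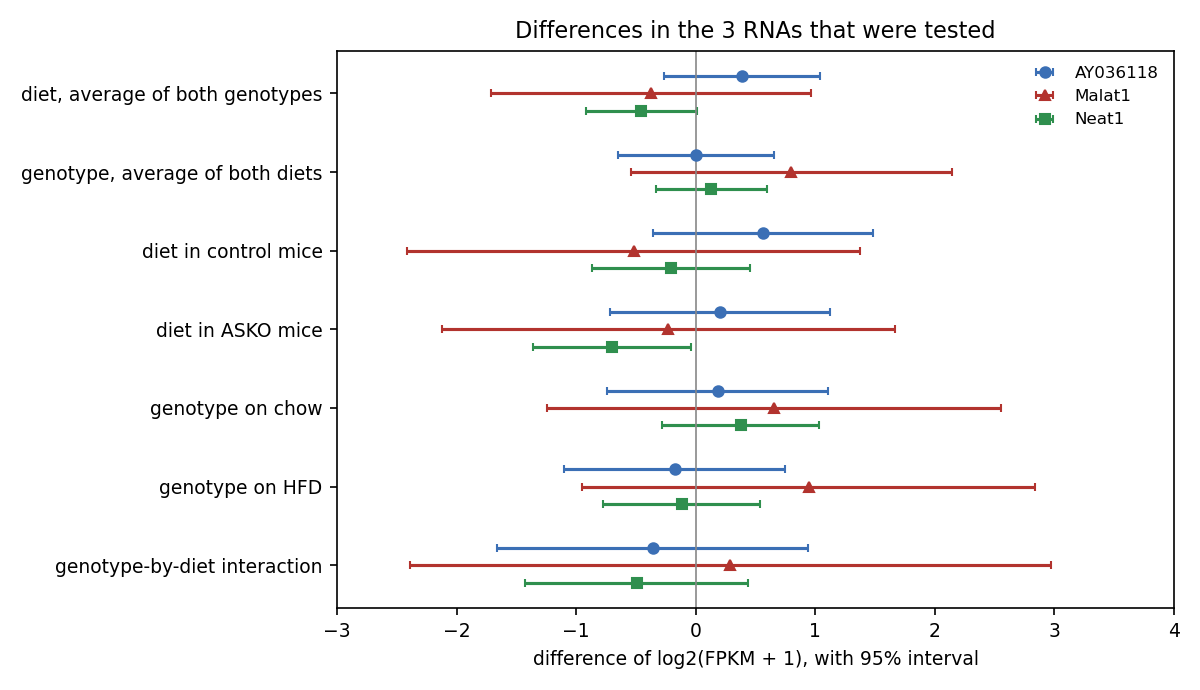
Difference in log2(FPKM + 1) of AY036118, Malat1 and Neat1 in the 7 comparisons, with points for the estimate and bars for the 95% interval from limma. The interval of Neat1 for HFD in Mboat7 ASKO mice, from -1.36 to -0.04, was the only one of the 21 that left out 0, and its adjusted p was 0.292.

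The mRNAs of proteins found in the nuclear bodies that hold Neat1 and Malat1 were in the same table. Of 19 genes of paraspeckle proteins, the partners of Neat1, 0 were called with HFD in either direction by limma, beside 7.53% of all genes. At an unadjusted p under 0.05 there were 3, beside 19.4% of all genes. With so few genes, counts this near the background are no result about the list. The median log2 difference was -0.18 beside 0.01 over all genes tested. The most abundant were Taf15 at a mean of 40.3 FPKM (-0.49 ± 0.24, adjusted p = 0.286) and Nono at 39.9 FPKM (0.06 ± 0.24, adjusted p = 0.939). Of 13 genes of speckle proteins 12 were tested, with 0 called by limma and 0 at an unadjusted p under 0.05. These counts stand beside 7.53% of all genes called and 19.4% at an unadjusted p under 0.05. With so few genes they are no result about the list. The median was 0.02. Srsf5, a splicing factor, was the most abundant at 70.0 FPKM (-0.26 ± 0.22, limma, adjusted p = 0.583).

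The genes near the imprinted RNAs were measured in part, and their counts stand beside 7.53% of all genes called with HFD and 19.4% at an unadjusted p under 0.05, so that with so few genes a count of 0 says nothing about either region. Of 6 genes of the Dlk1-Dio3 region 3 were listed and 2 tested, with 0 called and 0 at an unadjusted p under 0.05: Rian, a noncoding RNA of the same cluster as Meg3, had a log2 difference with HFD of 1.03 ± 0.61 (limma, adjusted p = 0.406), and Rtl1 of -0.27 ± 0.30 (adjusted p = 0.710). Of 10 genes of the Kcnq1 region 8 were listed and 6 tested, with 0 called by limma, 0 at an unadjusted p under 0.05 and a median of -0.02. Cd81, which encodes a membrane tetraspanin, was the most abundant at 59.8 FPKM (0.32 ± 0.27, limma, adjusted p = 0.586).

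Of 47 other long noncoding RNAs 36 were listed and 22 tested, and with HFD 1 was called higher and 1 lower, beside 7.53% of all genes called, with a median log2 difference of -0.11. These counts are near the background and are no result about the list. Nespas, an imprinted antisense RNA of the Gnas region, had a difference of 1.504 ± 0.29 (limma, adjusted p = 0.00333), but it was at 0 in 11 of 16 mice, with means of 5.14 FPKM in HFD-fed control mice, 0.601 FPKM in HFD-fed Mboat7 ASKO mice and 0 on chow. It passed the filter only through the group where it was high, so the value over both genotypes was carried by control mice. Snhg11, a host gene of small nucleolar RNAs, had a difference of -1.18 ± 0.32 (limma, adjusted p = 0.0316), with low means of 2.67 and 3.22 FPKM in control and Mboat7 ASKO mice on chow and 0.334 and 0.994 FPKM on HFD. The most abundant were Bvht at a mean of 66.9 FPKM (-1.64 ± 0.55, adjusted p = 0.0852), Snhg8 at 36.9 FPKM (0.25 ± 0.78, adjusted p = 0.921) and Gas5 at 36.1 FPKM (-1.11 ± 0.37, adjusted p = 0.0834). Their levels were far below AY036118 and of the order of Neat1 and Malat1. Of 16 entries that resemble ribosomal RNA 6 were listed and 3 tested, with 0 higher and 1 lower, Rn18s-rs5. Of 28 genes of RNA polymerase I and ribosomal RNA processing 25 were tested, with 0 called by limma, 3 at an unadjusted p under 0.05, beside 19.4% of all genes, and a median of -0.07. Of 20 RNAs chosen as lacking a poly(A) tail 9 were listed, all of them histone genes, and 7 were tested. By limma 0 were called and 1 had an unadjusted p under 0.05, beside 7.53% and 19.4% of all genes. With so few genes these counts are no result about the list. Between genotypes over both diets 0 genes of any of these lists were called by limma, and at an unadjusted p under 0.05 there were 2 of the other long noncoding RNAs and at most 1 gene of each other list, beside 3.76% of all genes.

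The genes whose levels followed each RNA most closely were sought among 3950 genes with a mean of at least 10 FPKM, across the 16 mice with group means subtracted. For AY036118 these were Gas6 (r = 0.84, rho = 0.80), Gm16069 (r = 0.82, rho = 0.72) and Hoxb3 (r = 0.78, rho = 0.67). For Malat1 they were Gm15607 (r = 0.88, rho = 0.86), Gm26964 (r = 0.84, rho = 0.84) and Pnrc2 (r = 0.82, rho = 0.77). For Neat1 they were Gm38287 (r = 0.81, rho = 0.79), Dhrs13os (r = 0.79, rho = 0.81) and Timp3 (r = 0.79, rho = 0.80). The highest of 3950 values is high by choice, and all points share libraries, so these are descriptions.

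For Kcnq1ot1 the most alike were Dnaja1 (r = 0.79), Hmgn2 (r = 0.78) and Gm17178 (r = 0.76). For Meg3 they were Gm20677 (r = 0.99, rho = 0.77), D330041H03Rik (r = 0.92, rho = 0.85) and Ctu2 (r = 0.88, rho = 0.64). Without the mouse at 5.09 FPKM, over 15 mice, r was 0.36 and rho 0.19 for D330041H03Rik and r 0.23 and rho 0.21 for Ctu2, while Gm20677 no longer varied within groups and gave no value. Among the members Malat1 and Neat1 had an r of 0.45 and a rho of 0.52, and r was 0.32 without the 2 mice farthest from the median. AY036118 had an r of 0.18 with Malat1 and 0.07 with Neat1, and without the 2 farthest mice 0.035 and -0.21, so that the sign with Neat1 turned.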

How the data were processed

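RNA of gWAT from 16 mice was measured. The deposited values are FPKM, which the authors made by trimming reads with TrimGalore 0.6.5, aligning them to mm10 with STAR 2.5.3a guided by GENCODE and quantifying with Cufflinks 2.2.1; the GENCODE release, the strand setting and the Cufflinks library normalization setting were not given in the sources used here. The labels name a NovaSeq sequencer and the methods a HiSeq. Unmapped columns were 0. Read depth was not in the table, and a rough estimate from the spacing of low values is given without counting intervals. Each library was taken as a separate mouse, as the labels describe them.

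Of 19373 entries 19289 matched GENCODE M21 (99.6%), and 22 symbols turned into dates were restored. FPKM were used as deposited, as log2(FPKM + 1). Genes with at least 1 FPKM in 4 mice (13148) were fitted with limma 3.58.1 in R 4.3.3, with 4 groups in a single fit and an intensity trend, and adjusted by Benjamini-Hochberg within each of 7 comparisons. Shares were compared with exact permutation tests. The limma test was tested on simulated data. Python 3.11.15 was used for tables (numpy 2.4.6, pandas 2.3.3) and figures (matplotlib 3.10.9). The members and lists were chosen with earlier results of these data known. Genes named are the 5 RNAs, entries overlapping them, the 10 highest entries, the 3 genes most alike each RNA, and up to 4 of the most abundant genes and the called genes of each list: other long noncoding RNAs, paraspeckle and speckle proteins, Dlk1-Dio3 and Kcnq1 regions, ribosomal-RNA-like entries, RNAs without a poly(A) tail, RNA polymerase I genes, and markers of adipocytes, macrophages, endothelial, progenitor, mesothelial and lymphoid cells, epididymis, muscle and blood. Alternatives tried were other pseudocounts, filters, scalings, share denominators, only the groups compared, no trend, a replicate block, and leaving out each mouse.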

Additional observations from a re-analysis of the deposited data

Results flagged for a closer look

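In 43 groups of 4 mice, 8 had a highest or lowest mouse set apart from the other 3 by Dixon's test at its 95% critical value, where chance flags about 1 in 20 groups of values without ties. AY036118 was at 319925 FPKM in replicate 1 of the HFD-fed control mice, where the next highest was 120810.0, and Gm42418, on the opposite strand of the same locus, was at 176 FPKM in the same mouse, where the next was 66.5. Kcnq1ot1 was at 0 in that mouse as well, with the next lowest at 0.2001 FPKM.

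Meg3 set a mouse apart in 3 groups that held mice at 0: replicate 2 of the chow-fed Mboat7 ASKO mice at 0.187 FPKM, replicate 0 of the HFD-fed control mice at 5.09 FPKM, and replicate 2 of the HFD-fed Mboat7 ASKO mice at 0.165 FPKM. In both Mboat7 ASKO groups the other 3 mice were at 0, so any value above 0 would have stood apart, and the chance rate does not apply. Gm20417, at the Malat1 locus, was at 1457 FPKM in replicate 0 of the chow-fed control mice, where the next was 483. The FPKM sum of replicate 1 of the chow-fed control mice was 772406, where the next was 636209. The causes were not tested.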

How the results depend on the processing

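Among AY036118, Malat1 and Neat1, 0 were called in every comparison under every alternative, including the replicate block, in which mice with the same number were treated as paired (0 called), and on leaving out each mouse in turn (0 to 0). Over 24 same-numbered pairs the correlation ran from -0.187 to 0.153, with a median of 0.00659 beside -0.00416 in other pairs, and 8 of 16 mice had their highest correlation with a mouse of their own number, so whether the numbers pair mice was not settled. The Neat1 share with HFD kept its direction and was -0.00675 (exact permutation, p = 0.0710) against a sum without the 10 highest entries. AY036118 differences changed sign, uncalled: with quantile normalization, which gives the highest entry nearly 1 value in all mice, HFD gave -0.25 over both genotypes, and in each genotype, and all 4 genotype and interaction differences were 0. The genotype difference over both diets was -0.012 with upper-quartile scaling, and on HFD it was 0.019 with scaling to the same sum and 0.022 with that sum without AY036118. For Neat1 the genotype difference on HFD was 0.076 and 0.079 with these scalings. The cause was not tested.

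Leaving out each mouse in turn moved the AY036118 share difference from 2.07 to 5.69 with HFD and from -1.75 to 2.45 for genotype. The Malat1 share ran from -0.00280 to 0.000368 with HFD and from 0.000988 to 0.00381 for genotype. The Neat1 share ran from -0.00684 to -0.00460 with HFD and from 0.000153 to 0.00245 for genotype. The Meg3 share ran from 3.58e-06 to 0.000121 with HFD and from -0.000114 to 2.83e-06 for genotype, and the Kcnq1ot1 share from -3.17e-06 to 4.88e-06 and from -5.27e-06 to 1.31e-06. The log2 differences of AY036118 ran from 0.19 to 0.51 with HFD over both genotypes, -0.18 to 0.20 for genotype, 0.17 to 0.81 with HFD in control mice, -0.17 to 0.46 in Mboat7 ASKO mice, -0.041 to 0.43 for genotype on chow, -0.55 to 0.22 on HFD, and -0.73 to 0.035 for the interaction. For Malat1 they ran from -0.65 to -0.034 with HFD over both genotypes, 0.46 to 1.08 for genotype, -1.08 to 0.16 with HFD in control mice, -0.75 to 0.43 in Mboat7 ASKO mice, -0.0088 to 1.19 for genotype on chow, 0.27 to 1.502 on HFD and -0.39 to 0.95 for the interaction. For Neat1 they ran from 0.044 to 0.23 for genotype, -0.40 to -0.038 with HFD in control mice, 0.21 to 0.55 for genotype on chow, -0.29 to 0.076 on HFD and -0.67 to -0.30 for the interaction.

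Genes called with HFD numbered 255 for control and 265 for Mboat7 ASKO mice when only the groups compared were fitted. On leaving out each mouse these counts ran from 257 to 419 and from 264 to 492. The counts for genotype over both diets and for the interaction ran from 0 to 1, for genotype on chow from 0 to 4 and on HFD from 0 to 2. For genotype on chow and on HFD alike 0 were called with the replicate block or a filter of 5 FPKM and 2 with no filter. On chow 0 were called with upper-quartile scaling, and on HFD 0 with only the groups compared, either scaling to the same sum or quantile normalization. The split of called genes into higher and lower moved with scaling: 713 and 291 with upper-quartile scaling for HFD over both genotypes, 173 and 176 with scaling to the same sum in control mice, and 331 and 111 without AY036118 in the sum or 351 and 96 with upper-quartile scaling in Mboat7 ASKO mice. The median over all genes moved to -0.16 with HFD in control mice, 0.16 for genotype on HFD and 0.27 for the interaction with scaling to the same sum. Without AY036118 in that sum it moved to -0.11 with HFD in control mice, 0.15 in Mboat7 ASKO mice, 0.16 for genotype on HFD and 0.27 for the interaction, and it moved to 0.18 with HFD in Mboat7 ASKO mice with upper-quartile scaling.

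Rn18s-rs5 was added after seeing the data: its difference with HFD over both genotypes was -0.93 with no filter (adjusted p = 0.0649) or no trend (adjusted p = 0.0856) and -0.77 with upper-quartile scaling (adjusted p = 0.0751). In Mboat7 ASKO mice it was -1.48 with no filter, no trend or only the groups compared (adjusted p = 0.0572, 0.0856 and 0.0756), -1.25 with upper-quartile scaling and -1.14 with quantile normalization. Log2 shares of Meg3 and Kcnq1ot1 were not run, because mice were at 0. Depth was only roughly estimated, so values near 0 were given no counting error.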

Other observations

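High entries on the strand opposite a known gene were common in this table. Of the 10 highest entries 9, and of the 50 highest 44, had exons that overlap another listed gene on the opposite strand, beside 28.5% of the 19289 matched entries. In 1562 such pairs of a protein-coding and a noncoding gene the noncoding entry had the higher mean in 1106 (70.8%), with a median ratio of 3.54. In the 846 pairs with an entry of at least 10 FPKM it was higher in 705 (83.3%), with a median ratio of 11.7. Among the 10 highest, RP23-218K15.7 lies opposite Ftl1, RP24-285L8.3 opposite Bnip3, Gm23134 opposite Nnat and Gm15441 opposite Txnip, and Fabp4 was the only one with no such overlap. The strand setting was not given in the sources used here, and its part in these levels was not tested.

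Other cell type markers were measured in the same mice. With HFD over both genotypes 7.53% of all genes were called and 19.4% had an unadjusted p under 0.05. Of 9 progenitor and fibroblast markers 4 had an unadjusted p under 0.05 and 2 rose, Lum by 2.65 ± 0.22 (limma, adjusted p = 7.17e-07) and Col3a1 by 1.22 ± 0.29 (adjusted p = 0.0127), which encode matrix proteins. Of 6 mesothelial markers 5 had an unadjusted p under 0.05 and 1 fell, Lrrn4, by 0.99 ± 0.26 (adjusted p = 0.0242); it was at 0 in 10 mice, the HFD-fed mice included, and passed the filter only through the chow-fed groups. The list had summed means of 31.6 and 19.02 FPKM in control and Mboat7 ASKO mice on chow and 5.17 and 6.44 FPKM on HFD. Of 8 endothelial markers 0 were called by limma and 0 had an unadjusted p under 0.05, with a median difference of 0.16. Of 9 lymphocyte markers 8 were listed and 2 tested, of 6 muscle markers 3 were listed and 2 tested, and of 5 blood markers 4 were tested, with 0 called in each by limma and 1, 0 and 1 at an unadjusted p under 0.05. Of 10 epididymis markers 1 was listed, Adam7, at 0 in 15 mice, so none was tested.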
